A study of Mus musculus with 23 samples.

Results

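The Fc gamma receptors are cell surface proteins that bind the constant part of IgG. The genes described here are Fcgr1, Fcgr2b, Fcgr3 and Fcgr4, together with their shared signaling chain Fcer1g, the neonatal receptor Fcgrt and the kinase Syk. They were chosen by name, since the injected antibodies are themselves IgG that such receptors could bind. The choice was made with earlier results of these data known, including results on Syk, so the counts below are not of a set picked blind. They are 7 of the 26869 genes in the expression table. All 7 were detected in all 23 tumors, and all 7 passed the filter on low counts in every comparison.

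Tumors of MC38, a mouse colon carcinoma cell line, were grown under the skin of female mice aged 8 to 12 weeks from 500000 injected cells. Every host was an F1 with C57BL/6J as a parent, and the other parent was a Collaborative Cross strain, a recombinant inbred strain bred from founders of diverse origin: CC001/UncJ (CC001F1), CC002/UncJ (CC002F1), CC036/UncJ (CC036F1), CC075/UncJ (CC075F1), CC079/TauUncJ (CC079F1) or CC080/TauUncJ (CC080F1). At a tumor size of 75 to 110 mm3 each mouse was given 200 µg of isotype control antibody (clone 2A3) or of antibody against PD-1 (aPD1, clone 29F.1A12) into the peritoneum, once, and the whole tumor was taken 48 h later for poly(A) RNA sequencing. The study's text, not the sample labels, classed CC001F1, CC002F1 and CC075F1 as responder (R) lines and CC036F1, CC079F1 and CC080F1 as non-responder (NR) lines. This gave 6 isotype and 6 aPD1 tumors of R lines, and 6 isotype and 5 aPD1 tumors of NR lines, with 2 tumors per line and antibody except CC080F1 with aPD1, which had 1.

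Library totals ran from 14494014 to 71868253 expected counts, and the 6 shallow libraries, of at most 18354585 counts, comprised 2 R and 4 NR tumors. The macrophage genes of the marker list (11 of 11, including Csf1r and Adgre1) were detected in every tumor, whereas the epithelial keratins were low, with Krt8 at 0 in 2 tumors and Krt18 at 0 in 7. The summed B cell markers stood far above the rest in CC080F1 aPD1 replicate 1 (3954 normalized counts), CC002F1 isotype replicate 1 (1390) and CC079F1 aPD1 replicate 1 (1090). Results that rest on these tumors are therefore also given without them.

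Fcgr1, Fcgr3 and Fcgr4 encode activating receptors, which do not signal alone but through Fcer1g, a small chain with an immunoreceptor tyrosine-based activation motif (ITAM). When bound IgG gathers the receptors together, Src family kinases phosphorylate the ITAM and Syk docks on it, which leads to phagocytosis, an oxidative burst and cytokine release. Fcgr2b encodes the inhibitory receptor, which recruits the phosphatase SHIP-1, encoded by Inpp5d, and in B cells is the main Fc gamma receptor. Fcgrt encodes the heavy chain of FcRn, which resembles an MHC class I molecule and returns endocytosed IgG to the cell surface. In tumors, macrophages and monocytes carry most of these receptors, NK cells carry Fcgr3, and neutrophils carry Fcgr3 and Fcgr4.

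In the GENCODE annotation on GRCm38, Fcgr2b (chr1:170958617-170976547), Fcgr4 (chr1:171018920-171029761), Fcgr3 (chr1:171051174-171064935) and Fcer1g (chr1:171229572-171234365) lie close together on chromosome 1. Fcgr1 (chr3:96282909-96293969), Syk (chr13:52583173-52648792) and Fcgrt (chr7:45092990-45103851) lie elsewhere. The 250 bases before the RefSeq transcript start (GRCm38.p6) are shown for the receptors with the largest class differences, Fcgr1 and Fcgr4, and for the inhibitory Fcgr2b. Capitals mark a match, on either strand, to the interferon motifs searched, GAS (TTCNNNGAA) and ISRE (GAAA, any 2 bases, GAAA).
Fcgr1, chr3:96293970-96294219, minus strand: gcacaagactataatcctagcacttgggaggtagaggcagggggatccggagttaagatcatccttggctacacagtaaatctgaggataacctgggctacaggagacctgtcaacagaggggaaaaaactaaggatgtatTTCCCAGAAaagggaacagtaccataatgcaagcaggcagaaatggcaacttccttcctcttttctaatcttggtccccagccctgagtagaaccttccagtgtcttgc
Fcgr4, chr1:171018676-171018925, plus strand: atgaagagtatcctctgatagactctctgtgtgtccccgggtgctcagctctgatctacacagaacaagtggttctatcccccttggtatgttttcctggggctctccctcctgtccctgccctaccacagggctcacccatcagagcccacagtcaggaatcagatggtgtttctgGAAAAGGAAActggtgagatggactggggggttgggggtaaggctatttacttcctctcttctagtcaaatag
Fcgr2b, chr1:170976072-170976321, minus strand: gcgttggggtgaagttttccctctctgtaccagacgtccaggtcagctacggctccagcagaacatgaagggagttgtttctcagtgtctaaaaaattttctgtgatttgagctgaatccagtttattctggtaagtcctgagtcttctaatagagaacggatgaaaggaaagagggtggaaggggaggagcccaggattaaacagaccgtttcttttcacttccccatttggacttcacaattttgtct
The Fcgr1 window held a GAS match from -109 to -101 relative to the start, and the Fcgr4 window an ISRE match from -73 to -64. Fcgr2b, Fcgr3, Fcer1g, Syk and Fcgrt had neither set of letters in their windows. Of 32851 mouse promoter windows of this length, 7.02% held the GAS letters and 2.98% the ISRE letters. The core motif of the myeloid factor PU.1 (GAGGAA, not in capitals here) was also searched on both strands and was in the windows of Fcgr1, Fcgr3 and Fcgr4 and in 1 of 2 windows of Syk, as in 23.3% of all windows. These matches describe the sequence only.

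Levels were first ordered per length, as CPM per kb of exon, over the 23 tumors. Fcer1g was highest, with a mean of 97.7 ± 35.8 (SD), and Fcgr3 followed at 56.4 ± 15.2. Fcgr4 (32.1 ± 30.3), Fcgr1 (23.7 ± 11.9) and Fcgr2b (20.4 ± 6.40) came next, then Fcgrt (12.6 ± 2.66) and last Syk (4.66 ± 1.84). Fcer1g exceeded Fcgr3, Fcgr2b exceeded Fcgrt, and Fcgrt exceeded Syk in 23 of 23 tumors. Fcgr4 and Fcgr1 were not ordered beyond their spread, since Fcgr4 was the higher of the pair in only 13 of 23 tumors. Fcgr4 was the most variable member, from 5.29 to 133 on this scale.

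The first question was whether tumors of R and NR lines differ in these transcripts. With all 23 tumors in a fit that also held antibody, 5 of the 7 genes were higher in R tumors and none was lower (DESeq2, adjusted p under 0.05). Across all 17643 genes tested, 14.4% differed, and 7.66% were higher in R tumors. The median log2 difference was 0.58 over the 7 genes and -0.00042 over all genes tested. The activating receptors Fcgr4, Fcgr1 and Fcgr3, the chain Fcer1g and the kinase Syk were higher, and the inhibitory Fcgr2b and the recycling receptor Fcgrt were not called. Here and below, tumors of a line were treated as independent, because line is nested in class. In whole tumors, more cells of a type and more RNA per cell cannot be told apart.

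Fcgr4, the activating receptor that binds IgG2a and IgG2b in mice, differed most. Its normalized count ran from 920 to 1429 in R isotype tumors (median 1290) and from 252 to 1356 in NR isotype tumors (median 446). With aPD1 it ran from 1114 to 6424 in R tumors (median 2852), and was 584, 661, 668, 840 and 1236 in the 5 NR tumors. R tumors were thus mostly higher, but the classes overlapped under both antibodies, through CC080F1 isotype replicate 1 and through CC001F1 aPD1 replicate 1. Over all tumors the difference was 1.56 ± 0.29 (log2, SE) or 2.95-fold, with a DESeq2 adjusted p of 7.61e-06.

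Fcgr1, the high affinity receptor, ran from 1742 to 2694 normalized counts in R isotype tumors (median 2246) and from 1020 to 2078 in NR isotype tumors (median 1570). With aPD1 it ran from 2070 to 5895 in R tumors (median 3268) and was 1224, 1542, 1611, 1799 and 1891 in NR tumors. The classes overlapped with isotype and did not with aPD1. Over all tumors Fcgr1 was 1.78-fold higher in R tumors (log2 0.83 ± 0.17, adjusted p 8.81e-05, DESeq2).

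Fcer1g, the chain on which the activating receptors depend, ran from 2710 to 3314 in R isotype tumors (median 3042), from 1717 to 3103 in NR isotype tumors (median 2564), and from 3006 to 7008 in R aPD1 tumors (median 4535). In the NR aPD1 tumors it was 2261, 2312, 2437, 2623 and 2634, a narrow range below every R aPD1 tumor. Over all tumors it was 1.51-fold higher in R tumors (log2 0.60 ± 0.12, adjusted p 6.11e-05, DESeq2).

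Syk ran from 1176 to 1760 in R isotype tumors (median 1475), from 919 to 1344 in NR isotype tumors (median 1084) and from 1766 to 3718 in R aPD1 tumors (median 2194). In the NR aPD1 tumors it was 1312, 1447, 1489, 1538 and 1602, again below every R aPD1 tumor. The difference over all tumors was 1.49-fold (log2 0.58 ± 0.11, adjusted p 2.12e-05, DESeq2).

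Fcgr3, the low affinity activating receptor, differed less, by 1.32-fold (log2 0.40 ± 0.10, adjusted p 0.00228, DESeq2). It ran from 3204 to 4041 in R isotype, 2414 to 3828 in NR isotype, 3382 to 6800 in R aPD1 and 2694 to 4098 in NR aPD1 tumors, and the classes overlapped under both antibodies. Fcgr2b (log2 0.16 ± 0.17, adjusted p 0.588) and Fcgrt (log2 0.07 ± 0.11, adjusted p 0.742) were not called. The 95% intervals of their log2 differences, -0.16 to 0.49 and -0.14 to 0.29, leave moderate differences in either direction possible. Expected counts are estimates and need not be whole. They were not whole in 95.7% of tumors for Fcgr2b and 21.7% for Fcgr3, against 0 for the other 5 genes, and how reads that fit several genes were assigned was not tested. The 5 calls over all tumors held with each of the 23 tumors left out and under all 9 other settings. Among these settings, counts summed per line and antibody kept an isotype and an aPD1 sum of each line. These sums were treated as independent, so that setting did not compare lines as single units.

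**Figure D1:**
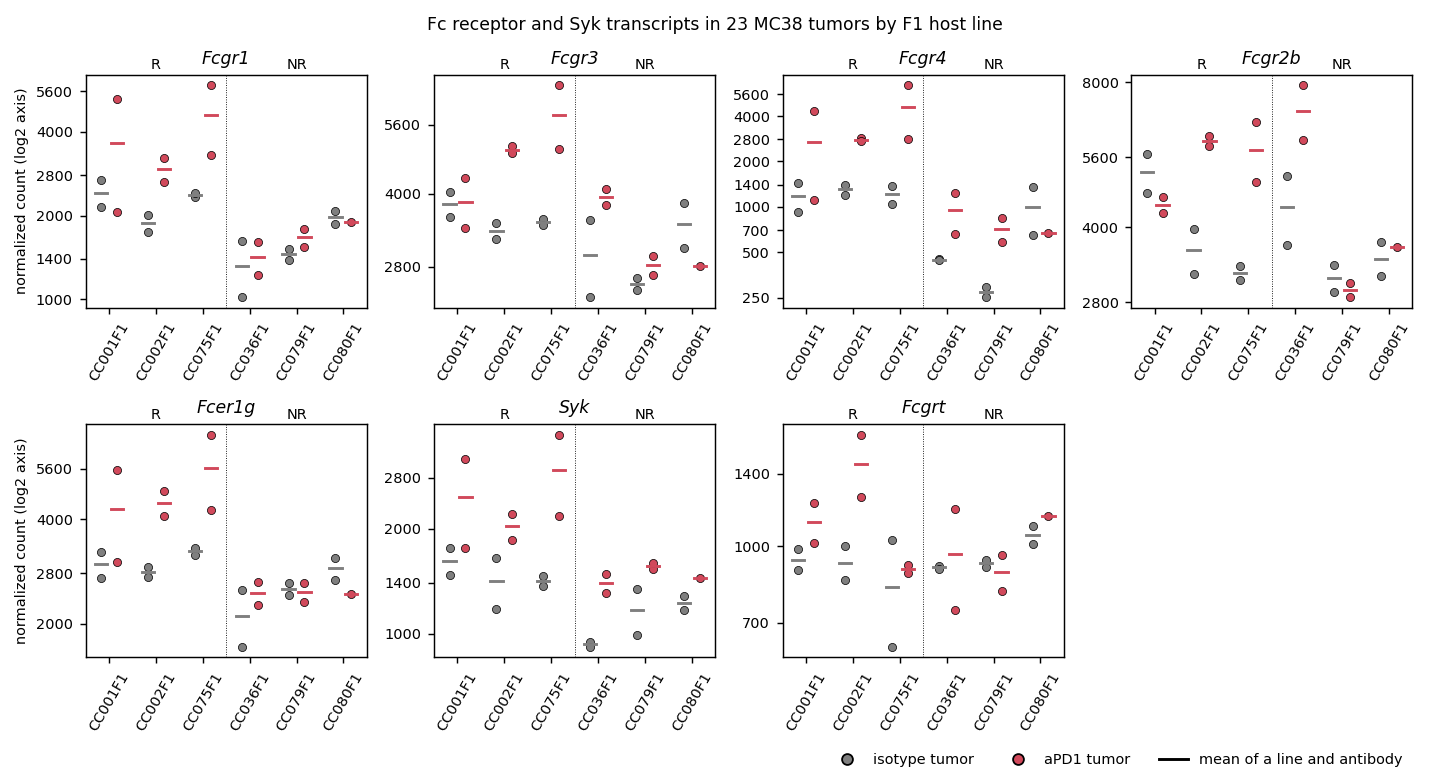
Size-factor normalized counts of the 7 genes (log2 axis) in each of the 23 tumors, by F1 host line, with isotype tumors in gray and aPD1 tumors in red. Short bars are means of a line and antibody, and a dotted line parts R from NR lines. All 6 R aPD1 tumors lie above all 5 NR aPD1 tumors for Fcgr1, Fcer1g and Syk, while Fcgr2b peaks in the NR line CC036F1.

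Among isotype tumors alone, which show the classes without PD-1 blockade, 2 of the 7 genes were higher in R tumors, against 2.29% of all genes tested (5.53% in either direction). These were Fcgr1 (log2 0.49 ± 0.14, adjusted p 0.0201) and Syk (0.42 ± 0.12, adjusted p 0.0151), both by DESeq2. Fcgr4 had the largest difference (1.10 ± 0.38) but an adjusted p of 0.0623. Without CC080F1 isotype replicate 1, whose Fcgr4 and T cell marker counts were the highest of the NR isotype tumors, 5 genes were called, and Fcgr4 differed by 1.57 (adjusted p 1.51e-12, DESeq2), Fcgr3 by 0.32 (adjusted p 0.0193) and Fcer1g by 0.33 (adjusted p 0.0301). Neither call held in limma with a random effect for line (adjusted p 0.173 for Fcgr1 and 0.165 for Syk). The same was true in DESeq2 on counts summed per line (adjusted p 0.132 and 0.0572). The within-line correlation that limma used for all genes was low, at 0.0622. Whether line or the change of test or of sample number lost these calls was not tested. None of the 7 was called by edgeR, which had 5 at an unadjusted p under 0.05, as did DESeq2. In DESeq2 the Fcgr1 call was lost without CC001F1 isotype replicate 2 (adjusted p 0.0694), CC075F1 isotype replicate 1 (0.0593), CC079F1 isotype replicate 1 (0.0690) or CC079F1 isotype replicate 2 (0.0563). The Syk call was lost without CC001F1 isotype replicate 2 (adjusted p 0.0534), CC002F1 isotype replicate 1 (0.0603), CC036F1 isotype replicate 1 (0.0562) or CC079F1 isotype replicate 1 (0.0590). No gene of the 7 had every R isotype tumor above every NR isotype tumor, a pattern met by 0.311% of all genes.

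Among aPD1 tumors, 5 of the 7 genes were higher in R tumors, against 5.94% of all genes tested (7.93% in either direction). Fcgr4 was 4.22-fold higher (log2 2.08 ± 0.40, adjusted p 1.78e-05), Fcgr1 2.31-fold (1.21 ± 0.28, adjusted p 0.000655) and Fcer1g 1.95-fold (0.96 ± 0.16, adjusted p 1.01e-06), all by DESeq2. Syk was 1.68-fold higher (0.75 ± 0.17, adjusted p 0.000778) and Fcgr3 differed by 0.58 ± 0.16 (adjusted p 0.00668). For Fcgr1, Fcer1g and Syk every R aPD1 tumor lay above every NR aPD1 tumor, which 1.78% of all genes showed. In limma with a random effect for line, only Fcer1g was called (adjusted p 0.0406), while Fcgr1 (0.0673), Fcgr4 (0.0630), Syk (0.101) and Fcgr3 (0.143) were not. Over all 9 other settings the adjusted p ran from 6.84e-09 to 0.0406 for Fcer1g, and up to 0.143 for Fcgr3, whose call was also lost in edgeR (0.0735), in the 17 deep libraries (0.0663) and without the 3 tumors with B cell transcripts (0.121).

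**Figure D2:**
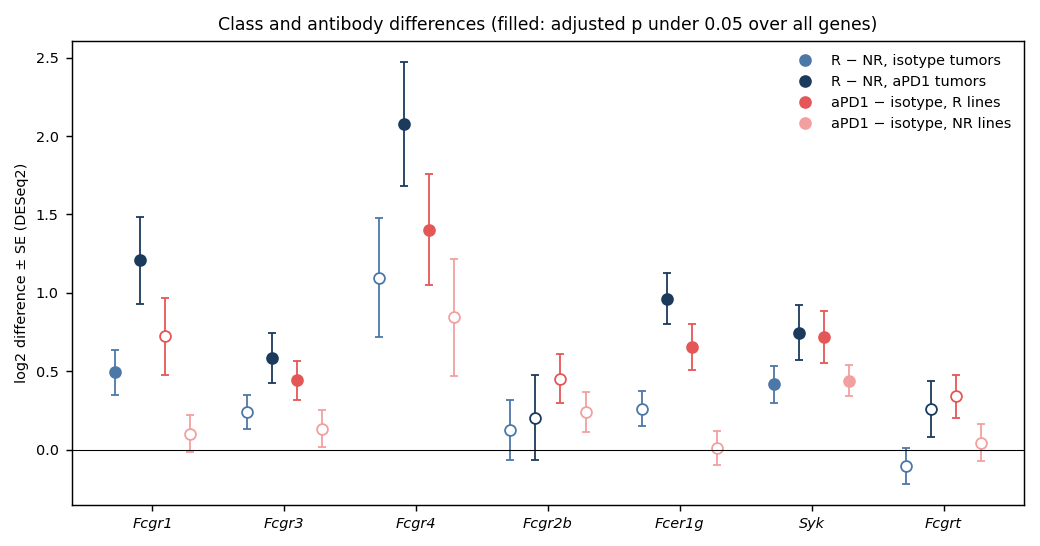
Log2 differences of the 7 genes in the R against NR and aPD1 against isotype comparisons. Points show the DESeq2 estimate, bars the SE on either side, and filled points an adjusted p under 0.05 over all genes. Fcgr4 has the largest estimates and the longest bars, and Fcgr2b and Fcgrt are filled in no comparison.

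The second question was what PD-1 blockade changed within 48 h. Within R lines, in a fit that also held line, 4 of the 7 genes rose with aPD1, against 4.85% of all genes tested (5.26% in either direction). Fcgr4 rose 2.64-fold (log2 1.40 ± 0.35, adjusted p 0.00505), Syk 1.65-fold (0.72 ± 0.17, adjusted p 0.00210), Fcer1g 1.57-fold (0.65 ± 0.15, adjusted p 0.00136) and Fcgr3 1.36-fold (0.44 ± 0.12, adjusted p 0.0121), by DESeq2. Fcgr1 (0.72 ± 0.24, adjusted p 0.0567), Fcgr2b (0.45 ± 0.16, adjusted p 0.0594) and Fcgrt (0.34 ± 0.14, adjusted p 0.156) were not called. In edgeR, which called no gene at all in this comparison, the 4 genes had adjusted p-values of 0.0645 to 0.0892, and all 7 had an unadjusted p under 0.05, as in DESeq2. The other settings called all 4.

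The R tumors given aPD1 differed widely within a line. In CC001F1, Fcgr4 was 1114 in replicate 1 and 4298 in replicate 2, Fcgr1 was 2070 and 5249, and Fcer1g was 3006 and 5567. Replicate 1 lay within or near the range of the isotype tumors of that line, and its summed T cell markers were also lower, at 845 against 2350 normalized counts. In CC075F1, replicate 1 had the highest Fcgr4, Fcgr1, Fcer1g and Syk counts of all 23 tumors, and the highest summed macrophage markers, whereas the CC002F1 tumors given aPD1 lay close together. What part these T cell and macrophage transcripts have in the receptor values was not tested. Leaving out CC001F1 aPD1 replicate 1 raised the Fcgr1 difference to 0.87 (adjusted p 6.71e-08), and leaving out CC075F1 aPD1 replicate 1 (adjusted p 0.0429) or replicate 2 (0.0355) also brought it under the threshold. The Fcgr4 call was lost without CC001F1 aPD1 replicate 2 (1.16, adjusted p 0.0515), and the Fcgr3 call without CC002F1 isotype replicate 2 (adjusted p 0.0581), CC002F1 aPD1 replicate 1 (0.0567) or CC075F1 isotype replicate 1 (0.0681). Fcgr2b was called without CC001F1 isotype replicate 2 (adjusted p 0.00714), CC001F1 aPD1 replicate 1 (0.00226) or CC001F1 aPD1 replicate 2 (0.0337), and Fcgrt without CC075F1 isotype replicate 2 (0.00325).

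In NR lines, 1 of the 7 genes rose with aPD1, against 0.0407% of all genes tested, or 10 genes (0.0448% in either direction). This was Syk, at 1.36-fold (log2 0.44 ± 0.10, adjusted p 0.0177, DESeq2). The rise of Syk was known when the 7 genes were chosen, so the count of 1 is not read against that share. In CC036F1 Syk went from 948 and 919 with isotype to 1489 and 1312 with aPD1, in CC079F1 from 995 and 1344 to 1538 and 1602, and in CC080F1 from 1284 and 1173 to 1447. The aPD1 tumors lay above the isotype tumors in each of these lines, and the share of all genes with this pattern was not computed. The call was lost without CC036F1 isotype replicate 1 (adjusted p 0.0536), CC036F1 aPD1 replicate 1 (0.135), CC036F1 aPD1 replicate 2 (0.134) or CC080F1 isotype replicate 2 (0.0516), in the 17 deep libraries (0.102) and in edgeR (0.105), where none of the 7 was called and 3 had an unadjusted p under 0.05.

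Fcgr4 in NR lines gave values that depended on CC080F1. It went from 450 and 442 to 1236 and 661 in CC036F1 and from 294 and 252 to 584 and 840 in CC079F1, but from 1356 and 648 to 668 in CC080F1. The estimate over the 3 lines was 0.84 ± 0.38 (adjusted p 0.807, DESeq2). Without CC080F1 isotype replicate 1 it was 1.00 (adjusted p 0.00115), without the only CC080F1 aPD1 tumor 1.23 (adjusted p 0.000129), and without the 3 tumors with B cell transcripts 1.30 (adjusted p 0.000330), against an adjusted p of up to 1.00 in the other settings. Fcgr1 (0.10 ± 0.12), Fcgr3 (0.13 ± 0.12), Fcgr2b (0.24 ± 0.13), Fcer1g (0.01 ± 0.11) and Fcgrt (0.04 ± 0.12) had adjusted p-values above 0.95.

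Over all 6 lines, 2 of the 7 genes rose with aPD1, Fcgr4 by 2.24-fold (log2 1.16 ± 0.26, adjusted p 0.00289) and Syk by 1.51-fold (0.59 ± 0.11, adjusted p 8.75e-05), by DESeq2, against 2.55% of all genes tested (2.79% in either direction). Syk was called under all 7 other settings and Fcgr4 under 5 of 7, missing in edgeR (adjusted p 0.0508) and in the deep libraries (0.0670). Syk had a higher mean with aPD1 in 6 of 6 lines, from 1.18-fold in CC080F1 to 2.01-fold in CC075F1, a pattern that 2.51% of all genes showed. Fcgr1, Fcgr3, Fcgr4 and Fcgrt had a higher mean in 5 of 6 lines, and Fcgr2b and Fcer1g in 4 of 6. For Fcgr3 this counts CC001F1, which was level at 1.005-fold. The shares of all genes with these 2 patterns were not computed. In CC001F1, Fcgr2b was lower with aPD1, at 4280 and 4630 against 4716 and 5690, while Fcgr4, Fcgr1 and Fcer1g had higher means there.

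**Figure D3:**
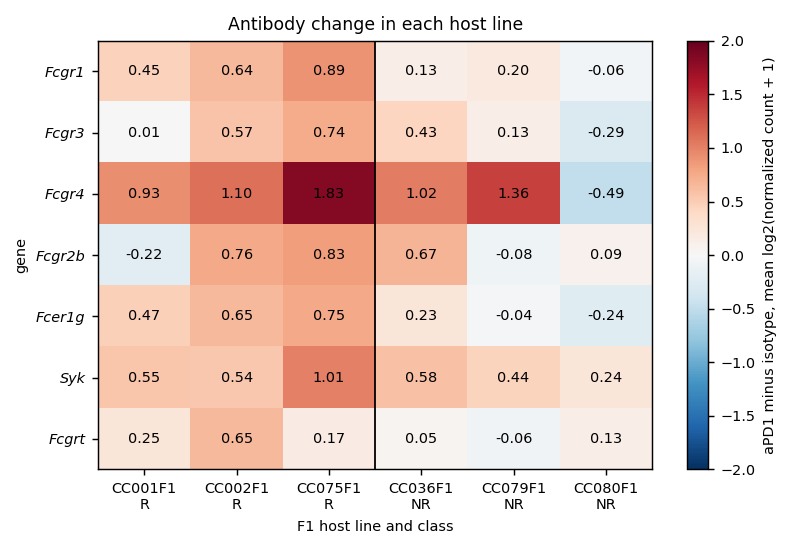
Difference of the mean log2(normalized count + 1) between aPD1 and isotype tumors in each F1 host line, in red where higher and blue where lower with aPD1, for each of the 7 genes. Syk is above 0 in 6 of 6 lines, and Fcgr4 reaches 1.83 in CC075F1 and -0.49 in CC080F1, where the aPD1 value is a single tumor.

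The difference between classes in the antibody effect was tested as an interaction, and 0 of the 7 genes passed in DESeq2 or in edgeR, against 0.0342% of all genes in DESeq2. At an unadjusted p under 0.05 there were 2 with either tool. Fcer1g came nearest, with a difference of effects of 0.66 ± 0.20 (unadjusted p 0.000947, adjusted p 0.272), followed by Fcgr1 at 0.63 ± 0.29 (adjusted p 0.677). Without CC001F1 aPD1 replicate 1, both Fcer1g (0.77, adjusted p 0.00243) and Fcgr1 (0.78, adjusted p 0.0107) were called, and Fcer1g also without CC036F1 isotype replicate 2 (0.76, adjusted p 0.0458). For Syk the difference of effects was 0.29 ± 0.21 with a 95% interval of -0.12 to 0.70, so the rise in R lines was not shown to differ from that in NR lines.

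Host lines of the same class were then compared, since these loci vary between mouse strains. Of the 7 genes, 1 differed between lines within class, against 6.29% of all genes tested. This was Fcgr2b (DESeq2 likelihood ratio test, adjusted p 0.00566). In the NR line CC036F1 it was 5127 and 3684 with isotype and 6073 and 7898 with aPD1, in CC079F1 it was 3339, 2942, 2867 and 3064, and in CC080F1 it was 3727, 3165 and 3649. CC036F1 thus held the highest value of all 23 tumors, and the 4 CC079F1 tumors lay close together under both antibodies. Among R lines the means of CC001F1, CC002F1 and CC075F1 were close, at 4829, 4814 and 4511, but CC001F1 was highest with isotype and lowest with aPD1. The call was lost without CC036F1 aPD1 replicate 2 (adjusted p 0.356), CC079F1 aPD1 replicate 1 (0.220) or CC079F1 aPD1 replicate 2 (0.220), and in edgeR (0.0591), the deep libraries (0.343) and without the 3 tumors with B cell transcripts (0.452). Fcgr4 was called only without CC080F1 aPD1 replicate 1 (0.0229) and Fcgrt only without CC075F1 isotype replicate 2 (0.0408).

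The balance of activating to inhibitory receptor transcripts was described as a ratio of normalized counts to Fcgr2b within each tumor, with no test. The Fcgr4 to Fcgr2b ratio was 0.321 ± 0.082 (SD, n = 6) in R isotype and 0.158 ± 0.110 (n = 6) in NR isotype tumors, and 0.609 ± 0.282 (n = 6) in R aPD1 and 0.190 ± 0.069 (n = 5) in NR aPD1 tumors. R aPD1 tumors ranged from 0.260 to 0.968 and NR aPD1 tumors from 0.0837 to 0.274, so the ranges met only at CC001F1 aPD1 replicate 1. The Fcgr1 to Fcgr2b ratio was 0.690 ± 0.271 in R aPD1 and 0.413 ± 0.191 in NR aPD1 tumors, with overlap. The low NR mean rested on CC036F1, whose aPD1 mean was 0.210. The other NR lines, CC079F1 (0.562) and CC080F1 (0.518, 1 tumor), lay above the R line CC002F1 (0.486). Both lay below the R lines CC075F1 (0.777) and CC001F1 (0.809). The summed Fcgr1, Fcgr3 and Fcgr4 to Fcgr2b ratio was 2.20 ± 0.62 in R aPD1 and 1.36 ± 0.44 in NR aPD1 tumors, with overlap. With isotype these means were 1.81 in R and 1.43 in NR tumors, with the NR line CC080F1 at 1.86. The Fcgr3 to Fcgr2b ratio was nearly level, from 0.762 ± 0.193 in NR aPD1 to 0.918 ± 0.163 in R isotype tumors. Counts here are not per length, so a ratio compares tumors and not the levels of 2 genes.

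**Figure D4:**
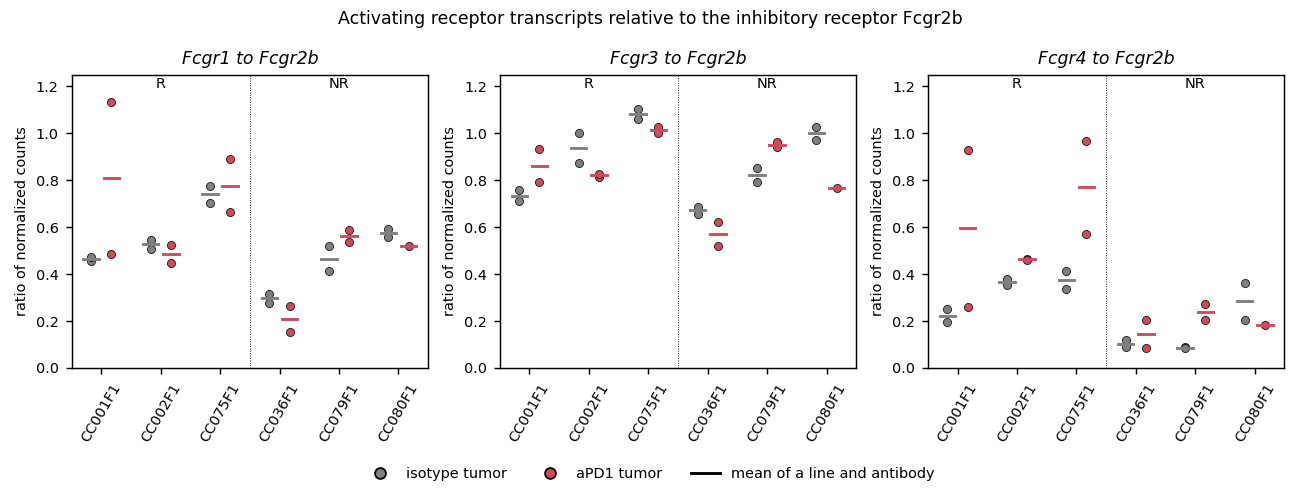
Ratio of the normalized counts of Fcgr1, Fcgr3 and Fcgr4 to that of Fcgr2b in each tumor (linear axis from 0), by F1 host line and antibody, with bars for the mean of a line and antibody. The Fcgr4 ratio exceeds 0.4 in R tumors only, and the lowest values of the Fcgr1 and Fcgr4 ratios are in NR lines.

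The partners of the receptors were counted from lists of their pathway. Over all tumors, 7.66% of all genes tested were higher in R tumors. Of 11 Fc receptor kinases and adaptors, 8 were higher in R tumors and none was lower, with a median log2 difference of 0.52. Among them was Lcp2 (0.77 ± 0.13), the adaptor SLP-76. Of the inhibitory signaling genes 3 of 4 were higher, led by Ptpn6 (0.75 ± 0.14), the phosphatase SHP-1, and Inpp5d (0.57 ± 0.12), the phosphatase that Fcgr2b recruits. All 7 genes of the phagocyte oxidase and cytoskeleton list were higher, led by Cybb (0.65 ± 0.22) and Cyba (0.64 ± 0.11), the subunits of the oxidase core. The Cybb call was lost without CC036F1 aPD1 replicate 2 (adjusted p 0.0508, DESeq2), in the deep libraries (0.109) and with counts summed per line and antibody (0.165). Of 9 genes induced by interferon gamma, 6 were higher, led by Cxcl9 (1.56 ± 0.29), a chemokine for T cells, and Ciita (1.52 ± 0.28), the activator of MHC class II genes.

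Other receptors were counted in the same way, beside the 7.66% of all genes tested that were higher in R tumors. A count of 1 in lists this short is not read as a result about the list. Of 6 other ITAM-coupled receptor genes, 1 was higher in R tumors, Tyrobp (0.57 ± 0.13), which encodes the chain DAP12, and 5 were tested. Of 11 other Fc-binding receptors 7 were tested and 1 was higher, the Fc receptor-like gene Fcrl5 (1.69 ± 0.56), at a low level with a median of 13.3 normalized counts. Its call was lost without CC075F1 aPD1 replicate 1 (adjusted p 0.0729, DESeq2) or CC036F1 aPD1 replicate 1 (0.0546), and in edgeR (0.0898), where none of these 11 was called and 1 had an unadjusted p under 0.05, as in DESeq2. Among aPD1 tumors, where 7.93% of all genes tested differed in either direction, Fcrl5 was higher in R tumors (2.59 ± 0.66). Fcer2a, the low affinity IgE receptor of B cells, was lower in R tumors (-4.17 ± 1.39, adjusted p 0.0383, DESeq2). Beside it 5 of 6 B cell markers were lower, led by Ms4a1 (-3.54) and Igkc (-3.00). These B cell differences rested on the tumors with B cell transcripts. Without CC080F1 aPD1 replicate 1 alone Igkc differed by -0.95 (adjusted p 0.370, DESeq2), and without all 3 such tumors Igkc differed by -0.52 (adjusted p 0.733) and Ms4a1 by 0.88 (adjusted p 0.634). The Fcer2a call was also lost without each of 5 R tumors, CC001F1 aPD1 replicate 2 (adjusted p 0.0775, DESeq2), CC002F1 aPD1 replicates 1 (0.0812) and 2 (0.0876) and CC075F1 aPD1 replicates 1 (0.0632) and 2 (0.0590), and the Ms4a1 call without the same 5, at adjusted p-values of 0.0624 to 0.108.

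Among isotype tumors, 2.29% of all genes tested were higher in R tumors. Of 11 kinases and adaptors 4 were higher, led by Lcp2 (0.54 ± 0.15) and Fgr (0.50 ± 0.11), a Src family kinase of myeloid cells. Both of these calls held with each tumor left out. The inhibitory signaling list had 3 of 4 higher, led by Ptpn6 (0.46 ± 0.13), the oxidase list 1 of 7, Cyba (0.45 ± 0.12), and the interferon list 1 of 9, Cxcl9 (1.30 ± 0.43). On leaving out each tumor these counts ran from 2 to 5, 0 to 3, 0 to 3 and 0 to 4. The inhibitory count was 0 without CC001F1 isotype replicate 2, CC079F1 isotype replicate 1 or CC079F1 isotype replicate 2, and the highest counts of all 4 lists were reached without CC080F1 isotype replicate 1. None of the 11 macrophage markers was called in DESeq2, where 4 had an unadjusted p under 0.05, or in edgeR, where 3 had. In edgeR no gene of the kinase, inhibitory, oxidase or interferon lists was called in isotype tumors, with 6, 3, 4 and 7 at an unadjusted p under 0.05, against 5, 3, 4 and 6 in DESeq2.

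With aPD1 in R lines, 4.85% of all genes tested rose. Of 11 Fc receptor kinases and adaptors 5 rose (median log2 change 0.46), among them Lcp2 (0.56 ± 0.16). Of 4 inhibitory signaling genes 1 rose, Ptpn6 (0.59 ± 0.15). All 7 oxidase and cytoskeleton genes rose (median 0.50), led by Rac2 (0.67 ± 0.17) and Cybb (0.54 ± 0.14). All 9 genes of the interferon gamma list rose (median 0.76), led by Ido1 (1.12 ± 0.17) and Cd274 (1.02 ± 0.24), which encodes PD-L1. These counts rested in part on CC001F1 aPD1 replicate 2, without which 1 of the kinases and adaptors, 1 inhibitory, 0 oxidase and 6 interferon genes were called by DESeq2, and the calls of Lcp2 (adjusted p 0.0889), Rac2 (0.0513) and Cybb (0.0671) were lost. Without CC075F1 aPD1 replicate 2 instead, 9 of the kinases and adaptors were called. None of these genes was called in R lines by edgeR, which called no gene there, although 9, 3, 7 and 9 genes of the 4 lists had an unadjusted p under 0.05, as in DESeq2. In NR lines 0.0407% of all genes tested rose in DESeq2. None of the genes of these 4 lists passed there in DESeq2 or edgeR, with DESeq2 medians of 0.03, 0.08, 0.03 and 0.32. At an unadjusted p under 0.05 there were 1, 0, 0 and 1 in DESeq2, and 1, 0, 0 and 4 in edgeR.

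Markers of some of the cell types that carry these receptors were also higher in R tumors. Over all tumors 7 of 11 macrophage markers were higher in R tumors (median 0.37), against 7.66% of all genes tested. They were led by C1qb (0.65 ± 0.14) and C1qa (0.57 ± 0.11), and none was lower. T cell markers were higher for 5 of 6 genes and NK cell markers for 2 of 5, led by Cd8a (1.78 ± 0.39) and Klre1 (1.37 ± 0.34). The other NK call, Klrb1c, was lost without CC075F1 isotype replicate 2, CC075F1 aPD1 replicate 1, CC075F1 aPD1 replicate 2, CC036F1 isotype replicate 2, CC036F1 aPD1 replicate 1 or CC080F1 aPD1 replicate 1, at adjusted p-values of 0.0503 to 0.0826 (DESeq2). 1 marker each of dendritic cells and endothelial cells was higher, Xcr1 (1.44 ± 0.40) and Pecam1 (0.52 ± 0.17). Of 4 neutrophil markers tested, 1 was higher, Csf3r (0.95 ± 0.22), which encodes the G-CSF receptor, while the median of the list was -0.69. Of the 6 B cell, 4 mast cell and 5 epithelial markers none was called, and none had an unadjusted p under 0.05, with DESeq2 or edgeR. The summed macrophage markers ran from 87503 to 149428 in R isotype, 66533 to 134751 in NR isotype, 128583 to 217310 in R aPD1 and 83176 to 118185 in NR aPD1 tumors. In aPD1 tumors Csf3r was higher in R tumors (1.35 ± 0.36) but S100a9, which encodes a subunit of calprotectin, was lower (-2.39 ± 0.62, adjusted p 0.00405, DESeq2), with a list median of -0.66. S100a9 was at 0 in 5 of the 23 tumors and at most at 76.2 normalized counts, S100a8 was at 0 in 3 and Retnlg in 15. The part of these cell types in the receptor values was not tested.

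To set the receptors beside the macrophage transcripts, the mean log2 level of the 11 macrophage markers was subtracted in each tumor, as a description. The R minus NR difference of Fcgr4 was then 1.17 in isotype and 1.37 in aPD1 tumors, and that of Fcgr1 0.36 and 0.55. For Fcer1g it was 0.13 and 0.34, and for Syk 0.27 and 0.12. For Fcgr3 it was 0.11 and -0.00091, for Fcgr2b -0.03 and -0.27, and for Fcgrt -0.26 and -0.33. On average, Fcgr4, Fcgr1, Fcer1g and Syk thus differed by more than the mean of the macrophage markers did, Fcgr4 by the most. Fcgr3 in aPD1 tumors differed by as much as that mean did. Single macrophage markers differed by more than their mean too. In aPD1 tumors the DESeq2 difference was 0.97 for C1qb and 0.84 for C1qa, with a median of 0.65 over the 11 markers. For Fcer1g it was 0.96 and for Syk 0.75, so these 2 genes did not stand apart from the most changed markers. After the subtraction the R and NR ranges of Fcgr4, Fcgr1, Fcer1g and Syk overlapped under both antibodies. For Fcgr1 in aPD1 tumors the lowest R value was -1.91 and the highest NR value -1.87. The rise of Syk with aPD1, averaged over lines, was 0.30 in R and 0.43 in NR lines after this subtraction, and that of Fcgr4 was 0.89 and 0.64.

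The genes most like each member across the 23 tumors were found among 12023 genes, by Pearson correlation of log2(normalized count + 1). The tumors share host lines, antibodies and depth, and the values are a description. Fcgr1 was most like Il10ra (r = 0.987), a subunit of the interleukin 10 receptor, then Slc11a1 (0.976) and Fermt3 (0.975). Fcer1g was also most like Il10ra (0.974), then Ctsh (0.969) and the complement gene C1qc (0.966). Fcgr4 was most like Ly6a (0.969), Fgl2 (0.958) and Tgm2 (0.954).

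Syk was most like Pik3r5 (0.940), a regulatory subunit of PI3 kinase gamma, Arap1 (0.929) and Myo1g (0.929), and Fcgr3 like Bcl2a1b (0.915), Klrb1b (0.913) and Fxyd5 (0.904). The likeness was weaker for Fcgr2b, with Galnt6 (0.843), Lgals3 (0.831) and then P2rx7, and weakest for Fcgrt, with Sh3tc1 (0.646), C1s1 (0.644) and Slfn4 (0.640). Among the 7 genes, Fcgr1 and Fcer1g were the most alike (r = 0.966, and 0.933 without the 2 tumors farthest from the median of Fcgr1). Fcgr1 and Fcgr2b had an r of 0.354, which fell to 0.221 without those 2 tumors, and no pair with Fcgrt exceeded 0.359.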

How the data were processed

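Poly(A) RNA of 23 tumors was sequenced. The authors mapped reads with Bowtie 1.2.3, per the labels and methods, to founder transcriptomes made with g2gtools 0.2.9 from GENCODE vM23 on GRCm38, and gbrs 0.1.6 gave the deposited expected counts per gene. These are estimates not scaled for depth, and 16.9% of values were not whole. Values were rounded before testing, which moved no library total by more than 67 counts.

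Names, lengths and coordinates came from GENCODE vM21 on GRCm38, which matched 26681 of 26869 gene identifiers, and promoters from RefSeq. Groups came from the labels, and the class of a line from the study's text. Replicate pairs differed by far more than sampling noise (chi-square per degree of freedom 9.73 to 135.9 over 11 pairs), and depth runs from 14494014 to 71868253 counts. The labels call them biological replicates and name no animal, so p-values measure the spread between these tumors.

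DESeq2 1.42.0 (R 4.3.3, default options, as the study states) was fitted on all genes with at least 5 counts over the libraries of a fit, with Benjamini-Hochberg adjustment over all genes tested and a threshold of 0.05. Normalized counts are divided by DESeq2 size factors, and CPM per kb use TMM library sizes and exon length. Alternatives were edgeR 4.0.16, limma 3.58.1 with line as a random effect, counts summed per line, TMM size factors, other count filters, a replicate block, the 17 deep libraries, leaving out 3 tumors with B cell transcripts, and leaving out each tumor. Tested on simulated data of 26869 genes, 10.3% of DESeq2 calls were false for R against NR over all tumors. For aPD1 in R lines 14.5% were false and for lines within class 34.4%, against 6.06%, 0.943% and 1.33% for edgeR. The simulation gave every gene the same dispersion and held no effect of host line, so these rates are not the error in these data. Of simulated log2 changes of 0.585, DESeq2 recovered 38.1%, 12.7% and 3.2% in the same order, and edgeR 34.9%, 4.76% and 1.59%.

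All 7 members are described. Genes of the other lists were named where they were the most changed calls of their list, up to 2 in each direction, except 1 gene that is not reported here, and likeness names the 3 most correlated genes whose mean normalized count reached 100. The members and lists were chosen with earlier results of these data known, including the rise of Syk in NR lines. The interferon gamma and cell marker lists partly repeat genes the study names.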

Additional observations from a re-analysis of the deposited data

Results flagged for a closer look

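Of 32 groups of 5 or 6 tumors screened, 2 held a tumor standing apart from the rest by Dixon's criterion, and chance alone flags about 1 in 20 groups. Fcgr4 in CC080F1 isotype replicate 1 was 1356 normalized counts, with the next NR isotype tumor at 648. That tumor also had the highest summed T cell markers of the NR isotype tumors (1240 normalized counts). Fcgr2b in CC036F1 isotype replicate 1 was 5127 normalized counts, with the next NR isotype tumor at 3727. The part of other cell types in these values was not tested.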

How the results depend on the processing

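Direction was the same as reported for each of the 7 genes in each comparison under each setting, other than the following, all of which leave tumors out and concern differences that were not called. Fcgr2b in R against NR aPD1 tumors was -0.066 without the 3 tumors with B cell transcripts. For aPD1 in NR lines, Fcer1g was -0.098 without CC036F1 isotype replicate 2, -0.055 without CC036F1 aPD1 replicate 1, -0.0021 without CC079F1 isotype replicate 2 and -0.010 without CC079F1 aPD1 replicate 2, and ran from -0.098 to 0.093 on leaving out each tumor. Fcgrt was -0.072 without CC036F1 aPD1 replicate 2 and ran from -0.072 to 0.126. Among named genes of the lists, Ms4a1 in R against NR aPD1 tumors turned from -3.54 to 0.88 without the 3 tumors with B cell transcripts.

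The number of the 7 genes called in R against NR over all tumors was 5 under every setting. For isotype tumors it was 2 as reported, 0 in edgeR, in the 17 deep libraries, with line as a random effect and with counts summed per line, 1 without the 3 tumors with B cell transcripts, and 0 to 5 on leaving out each tumor. For aPD1 tumors it was 5 as reported, 1 with line as a random effect and 5 on leaving out each tumor. It was 4 in edgeR, in the deep libraries and without the 3 tumors, where the Fcgr3 call was lost. For aPD1 in R lines it was 4 as reported, 0 in edgeR and 3 to 6 on leaving out each tumor. In NR lines it was 1 as reported, 0 in edgeR and in the deep libraries, 2 without the 3 tumors, and 0 to 2 on leaving out each tumor. Over all lines it was 2 as reported, 1 in edgeR and in the deep libraries, 4 without the 3 tumors, 3 with TMM size factors or the stricter count filter, and 2 to 6 on leaving out each tumor. The difference of effects gave 0, and 0 to 2 on leaving out each tumor. For lines within class it was 1 as reported, 0 in edgeR, in the deep libraries and without the 3 tumors, and 0 to 2 on leaving out each tumor. The deep libraries and the sets without tumors hold fewer samples, and the cause of the other changes was not tested.

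Over all genes, the counts of calls fell between DESeq2 and edgeR from 829 to 30 for isotype tumors, 1361 to 560 for aPD1 tumors, 826 to 0 for aPD1 in R lines, 11 to 5 in NR lines, 464 to 15 over all lines, 9 to 0 for the difference of effects and 1208 to 502 for lines within class. On leaving out each tumor they ran from 402 to 1838 for isotype tumors, 928 to 1577 for aPD1 tumors, 327 to 1386 for aPD1 in R lines, 2 to 242 in NR lines (highest without CC080F1 aPD1 replicate 1), 155 to 801 over all lines, 4 to 305 for the difference of effects (highest without CC001F1 aPD1 replicate 1) and 842 to 1488 for lines within class.

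Whether replicate numbers pair the tumors was not decided, since the values differed in sign and no cutoff was set. The correlation of deviations between same-numbered tumors was 0.368, 0.0624 and -0.202 in CC001F1, CC002F1 and CC075F1, and 0.202 and 0.115 in CC036F1 and CC079F1. With the replicate block the number of the 7 genes called was 5, 3 and 5 in the class comparisons over all, isotype and aPD1 tumors, 5, 1 and 3 for aPD1 in R, NR and all lines, 0 for the difference of effects and 1 for lines within class. For aPD1 in NR and all lines and for the difference of effects, this block left out CC080F1 isotype replicate 2, which has no aPD1 tumor of the same number.

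Depth did not limit detection of these genes, the lowest normalized count of any being 252. The number of tumors limits precision, since the R against NR comparisons rest on 3 lines a class.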

Other observations

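The counts of Fcgr3 and Fcgr2b, taken as deviations from the mean of their line and antibody, had a correlation of 0.877 over 23 tumors. On the same measure the correlation was highest for Fcgr1 and Fcer1g, at 0.976. It was 0.869 for Fcgr3 and Fcer1g, 0.794 for Fcgr3 and Fcgr1, 0.614 for Fcgr2b and Fcer1g and 0.511 for Fcgr2b and Fcgr1.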
